A study of Arabidopsis thaliana with 9 samples.

Results

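Genes named as cytochromes P450 (CYP), beta-glucosidases (BGLU) and glutathione transferases of the tau (GSTU) and phi (GSTF) classes were examined in Arabidopsis thaliana seedlings that lack a normal copy of EBS or SHL, related chromatin-reader genes with roles in the repression of flowering. Members were the genes whose symbol or synonym begins with CYP, BGLU, GSTU or GSTF followed by a number, and that were read by a probe set annotated to a single gene. By this rule 62 genes were found among 13356 genes named on the array, out of 350 genes with such names in the RefSeq annotation. They comprised 24 P450 genes, 22 BGLU genes, 11 GSTU genes, 1 GSTF gene (GSTF4) and 4 genes whose CYP stands for cyclophilin, a class of protein-folding isomerases unrelated to P450 enzymes. The cyclophilins are SQN (CYP40), CYP57, CYP59 and CYP71, and they are described apart from the enzymes. Of the P450 genes 19 belonged to the CYP71B subfamily, and most P450 genes of hormone, cutin and phenylpropanoid synthesis were not analysed here.

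The ebs mutant, the shl-2 mutant and the wild type were all in the accession Landsberg erecta, and the labels name no treatment or transgene in any group. Whole seedlings were taken at 18 days of age from solid medium, with a photoperiod of 8 h and nights of 16 h. Each genotype had 3 independent biological pools, each read by its own Affymetrix array, and the values are log2 signals from the authors' RMA. A field of the labels also writes shl-2-2 for the shl-2 line.

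Cytochromes P450 are haem enzymes of the endoplasmic reticulum that insert an oxygen atom into small molecules, and plants use a large family of them to make hormones, pigments and defence compounds. Beta-glucosidases remove glucose from stored conjugates, among them glucosinolates, coumarins, monolignols and abscisic acid, and so release the active molecule. Some of them fill the ER bodies, rod-shaped compartments of seedlings and roots. Glutathione transferases of the tau and phi classes are plant enzymes that join glutathione to reactive or foreign compounds and can also carry ligands.

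Across the 9 arrays, medians lay between 6.06 and 6.12 on the log2 scale, and arrays of the same genotype correlated at r = 0.992 to 0.997 over probe sets, against 0.988 to 0.995 for arrays of different genotypes. SHL, annotated as SHL1, read 8.08, 7.82 and 7.81 in ebs, 7.46, 6.91 and 6.52 in shl-2, and 7.88, 8.02 and 7.88 in wild type. Every shl-2 value was below every value of the other genotypes. The log2 fold change in shl-2 was -0.96 (limma adjusted p = 0.0182), and removing shl-2 array 2, or wild type array 2 or 3, ended the call (highest adjusted p = 0.0772), as did fitting the 2 genotypes alone (0.0502). Where its probe set lies relative to the mutation, and the level of EBS, were not analysed here. The photosynthesis genes LHCB4.1 and PSAN read 13.54 to 13.98 on every array, whereas the anther genes SPL and AMS lay among the dimmest 30% of probe sets (log2 signal up to 4.2). Of the marker lists, 2 root, 2 flower, 2 leaf photosynthesis and 1 wound and defence gene were measured, and 0 passed the test in either mutant.

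Few of these genes were called different between a mutant and wild type. A gene was called at an adjusted p under 0.05 in limma, with Benjamini-Hochberg adjustment over all 22746 probe sets. In ebs 3 of the 62 members were called, which is 4.84% against 3.19% of all probe sets: CYP71B36 and GSTF4 were higher (2 members, with 1.72% of all probe sets called higher) and CYP78A9 was lower (1 member, with 1.47% called lower). In shl-2 also 3 members were called, 4.84% against 5.43% of all probe sets: BGLU16 was higher (1 member, with 2.44% of all probe sets called higher), and CYP78A9 and CYP71B26 were lower (2 members, with 2.99% called lower). CYP78A9 was the single member called in both mutants, whose comparisons share the wild type arrays. The shares of members called lay near the background. Without wild type array 1, wild type array 3, ebs array 1 or ebs array 3 the count in ebs was 0, and it was 1 without wild type array 2 or ebs array 2. In shl-2 the count was 1, with CYP78A9 left each time, when shl-2 array 1, ebs array 1, or wild type array 2 or 3 was removed.

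Read by family, the P450 genes had 2 of 24 members called in ebs and 2 of 24 in shl-2. Among the BGLU genes 0 of 22 were called in ebs and 1 of 22 in shl-2, while the GSTU genes gave 0 of 11 in ebs and 0 of 11 in shl-2. At an unadjusted p under 0.05, 2 P450, 4 BGLU and 1 GSTU genes would have passed in ebs, where 16.9% of all probe sets did. In shl-2 these counts were 4 P450, 6 BGLU and 3 GSTU genes, where 18.7% of all probe sets did. GSTF4 passed in ebs and not in shl-2, and of the 4 cyclophilin genes 0 passed in either mutant, with 1 at an unadjusted p under 0.05 in ebs. Median log2 fold changes in ebs were -0.04 for P450, 0.02 for BGLU, 0.05 for GSTU and -0.16 for the cyclophilins, beside -0.02 over all probe sets. In shl-2 they were -0.09, -0.04, -0.08 and -0.12 in the same order, beside -0.03 over all probe sets. GSTF4, alone in its class, had 0.47 in ebs and -0.14 in shl-2. No test between families was made, and how far medians of sets of these sizes vary was not examined.

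**Figure D1:**
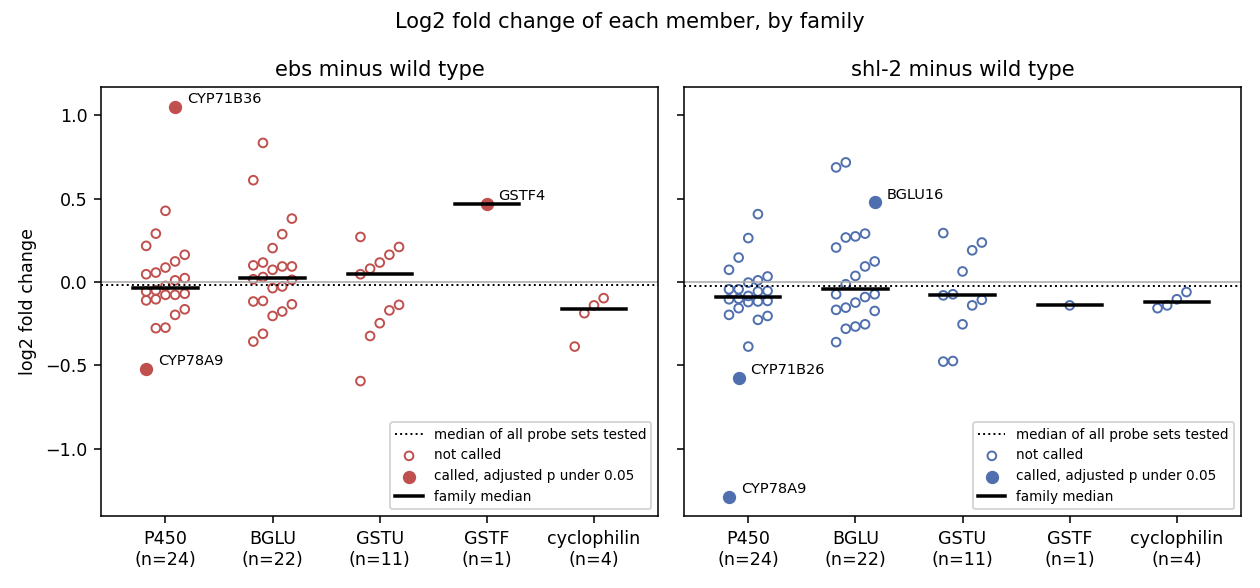
Each point is the log2 fold change of a member in ebs minus wild type (left) or shl-2 minus wild type (right), grouped by family, with filled points called at an adjusted p under 0.05, thick lines at family medians and a dotted line at the median of all probe sets. Medians of families of more than 1 gene lie between -0.16 and 0.05. The called members are CYP71B36, GSTF4 and CYP78A9 in ebs and BGLU16, CYP71B26 and CYP78A9 in shl-2.

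Negative values were recorded for 31 of 62 members in ebs (56.5% of all probe sets were negative there) and for 42 of 62 in shl-2 (67.7%, against 58.0%). In shl-2 minus ebs 39 of 62 were negative (62.9%, against 51.1%), 20 of them among the 24 P450 genes. In shl-2 the P450 genes had 18 negative values of 24, the BGLU genes 12 of 22 and the GSTU genes 7 of 11. The arrays of ebs and wild type did not overlap for 12 members (19.4%, against 19.9% of all probe sets), and those of shl-2 and wild type did not overlap for 15 (24.2%, against 20.5%). Among the BGLU genes, 5 of the 6 without overlap in shl-2 lay above wild type (BGLU15, BGLU16, BGLU25, BGLU28 and BGLU46). Among the P450 genes, 5 of the 6 lay below it (CYP71B26, CYP71B27, CYP71B30P, CYP71B35 and CYP78A9). The shares of all probe sets above or below wild type without overlap were not computed, so these directions have no background. The mean signals of CYP71B27 (3.45), CYP71B30P (2.99) and BGLU28 (3.98) lay under 4.2, among the dimmest probe sets. So did that of CYP71B37 (3.58), the P450 gene above wild type. Whether the families differ in direction was not tested.

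CYP78A9 showed the lowest log2 fold change of any member in shl-2. It encodes a P450 of the CYP78A subfamily, whose members promote the growth of organs, and CYP78A9 is known for enlarging fruits and seeds when overexpressed. It read 5.97, 6.17 and 6.23 in ebs, 5.27, 5.55 and 5.25 in shl-2, and 6.65, 6.70 and 6.58 in wild type. The 3 genotypes did not overlap, with shl-2 lowest and wild type highest. In shl-2 the mean was 5.36 ± 0.17 against 6.64 ± 0.06 in wild type (SD, n = 3 each), which is 2.44-fold lower (log2 fold change -1.29, SE 0.10, adjusted p = 0.000302 in limma). In ebs the mean was 6.12 ± 0.14, which is 1.43-fold lower (log2 fold change -0.52, SE 0.10, adjusted p = 0.026 in limma). Since whole seedlings were read, fewer cells with this transcript and less transcript per cell cannot be told apart.

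The decrease of CYP78A9 was larger in shl-2 than in ebs, with a log2 fold change of -0.77 for shl-2 minus ebs (95% interval -0.99 to -0.54, limma adjusted p = 0.00896). Between the mutants 2 of 62 members were called, 3.23% against 0.769% of all probe sets, the other being GSTF4. Both were lower in shl-2, a direction in which 0.501% of all probe sets were called. The count was 1 without wild type array 3, any ebs array, or shl-2 arrays 1 or 2, and that member was CYP78A9; without shl-2 array 3 the members called were CYP78A9 and BGLU28. CYP78A9 kept its calls in shl-2 minus wild type and in shl-2 minus ebs in each of the 9 fits that left out an array (highest adjusted p 0.00228 and 0.0465). Its smaller change in ebs was no longer called without any of the wild type arrays or without ebs arrays 1 or 3 (highest adjusted p = 0.106). It was the single gene measured here from the list of organ growth P450 genes.

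GSTF4, a phi class glutathione transferase, was higher in ebs than in the other genotypes. It read 4.85, 4.97 and 4.89 in ebs, 4.25, 4.32 and 4.32 in shl-2, and 4.23, 4.64 and 4.44 in wild type. All ebs arrays lay above all others, while shl-2 lay within the wild type range. The log2 fold change was 0.47 in ebs (SE 0.10, limma adjusted p = 0.0366) and -0.14 in shl-2 (adjusted p = 0.514), and shl-2 minus ebs gave -0.61 (95% interval -0.83 to -0.38, adjusted p = 0.0256). In ebs the call did not survive the removal of wild type array 1 or 3, of shl-2 array 1 or 2, or of any ebs array (highest adjusted p = 0.107). Between the mutants it did not survive the removal of wild type array 3 or of any array of a mutant (highest adjusted p = 0.0979).

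CYP71B36 had the highest log2 fold change of any member in ebs. The CYP71B subfamily is large in Arabidopsis and lies mostly in tandem repeats, and a few of its members are placed in camalexin and indole metabolism. CYP71B36 read 5.60, 5.15 and 5.48 in ebs, 5.21, 4.90 and 4.19 in shl-2, and 4.61, 4.39 and 4.08 in wild type. All ebs arrays exceeded all wild type arrays, and shl-2 spread from the wild type range to the ebs range. The log2 fold change was 1.05 in ebs (SE 0.24, limma adjusted p = 0.0459), or 2.07-fold higher, and 0.41 in shl-2 (95% interval -0.13 to 0.94, adjusted p = 0.412). Removing shl-2 array 2, or any array of ebs or wild type, ended the ebs call (highest adjusted p = 0.152), and the mutants did not pass against each other (log2 fold change -0.64, adjusted p = 0.347).

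CYP71B26 was lower in shl-2, where it read 8.19, 8.28 and 7.71, against 8.68, 8.60 and 8.63 in wild type. The ebs arrays lay between them at 8.46, 8.35 and 8.27, overlapping shl-2 and lying below wild type. Its log2 fold change was -0.58 in shl-2 (SE 0.13, limma adjusted p = 0.0342) and -0.28 in ebs (95% interval -0.57 to 0.02, adjusted p = 0.329). Removing shl-2 array 1, ebs array 1 or 3, or any array of wild type ended the shl-2 call (highest adjusted p = 0.0958), and also when the 2 genotypes were fitted alone (adjusted p = 0.0787).

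**Figure D2:**
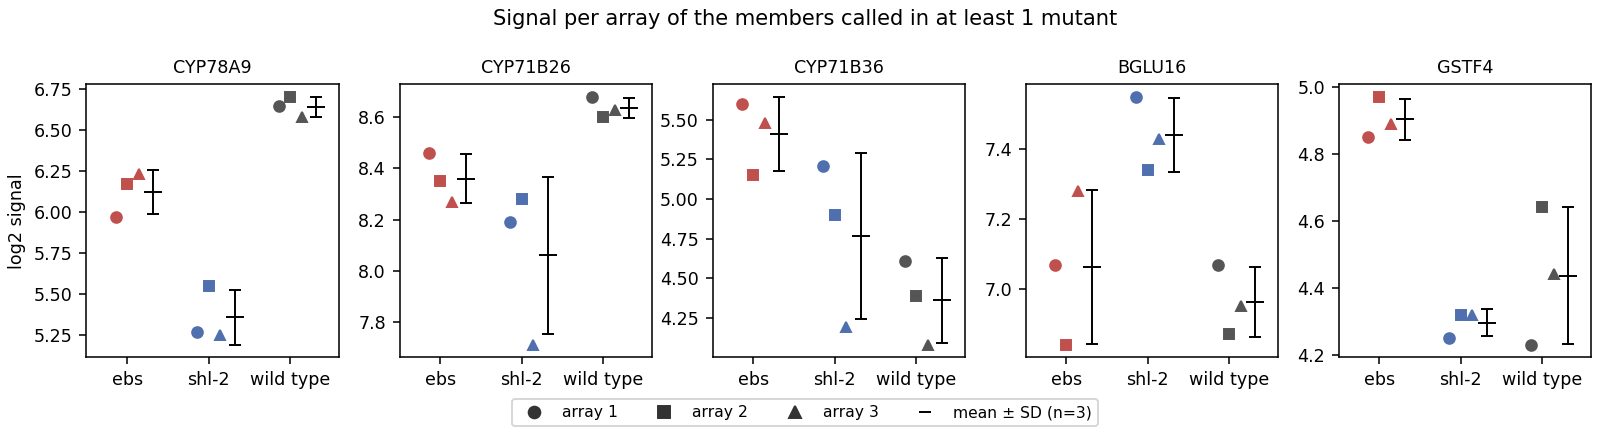
Log2 signal on each array (array 1, circle; array 2, square; array 3, triangle) in ebs, shl-2 and wild type for the 5 members called in a mutant, with the mean and SD of each genotype to the right of its points; each panel has its own vertical scale. CYP78A9 is lower in both mutants with no overlap, GSTF4 is higher in ebs alone of the mutants, and BGLU16 is higher in shl-2.

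CYP71B26 and CYP71B36 belong to the same stretch of chromosome 3, where 11 measured CYP71B genes lie within 25 annotated genes. Of the other 14 genes in the stretch 7 also carry CYP names and were not analysed here. From the start of the stretch the measured genes run CYP71B16, CYP71B21, CYP71B22, CYP71B23, CYP71B24, CYP71B25, CYP71B26, CYP71B34, CYP71B35, CYP71B36 and CYP71B37. In ebs their log2 fold changes ranged from -0.28 to 1.05 with a median of 0.06 and 1 call, and in shl-2 from -0.58 to 0.41 with a median of -0.10 and 1 call. The last 4 genes adjoin each other with no gene between. There CYP71B36 stood at 1.05 in ebs, while CYP71B34 (-0.20, adjusted p = 0.459) and CYP71B35 (-0.27, adjusted p = 0.341) before it and CYP71B37 (0.16, adjusted p = 0.542) after it were not called. CYP71B35 read 6.51, 6.58 and 6.63 in ebs, with 6.55, 6.62 and 6.21 in shl-2, against 6.78, 6.65 and 7.11 in wild type, so both mutants lay below wild type without overlap, with an adjusted p of 0.146 in shl-2. Whether neighbouring genes differ from each other in their response was not tested.

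**Figure D3:**
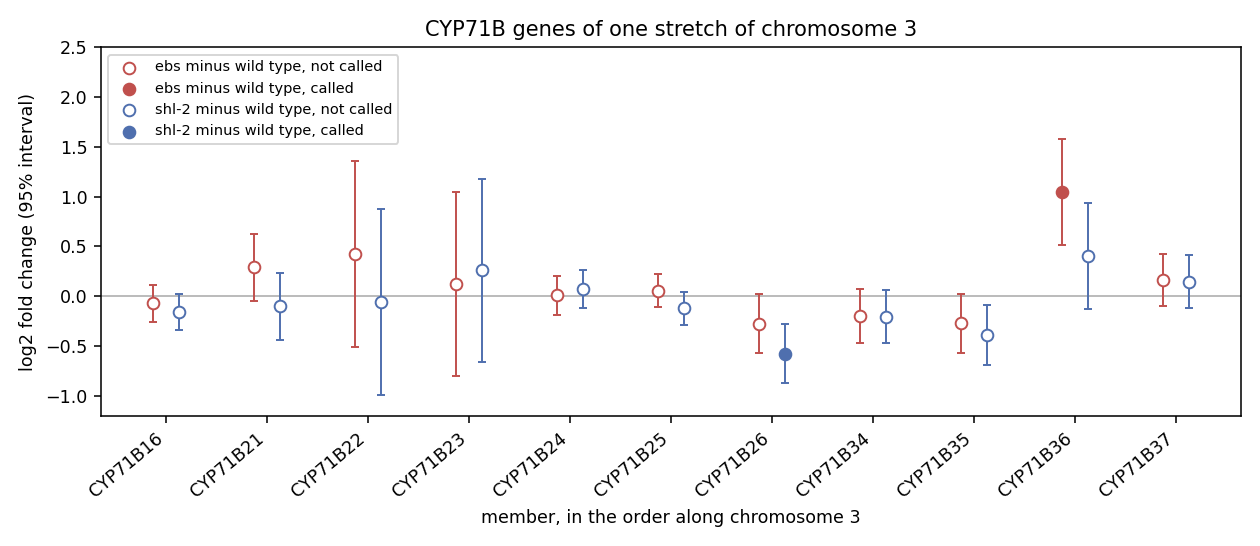
Log2 fold change with its 95% interval for the 11 CYP71B genes of the stretch on chromosome 3, in the order of the annotation, for ebs minus wild type (left point of each pair) and shl-2 minus wild type (right point); filled points were called. CYP71B36 at 1.05 in ebs and CYP71B26 at -0.58 in shl-2 are the called values, and CYP71B22 and CYP71B23 have the widest intervals.

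The P450 genes outside this stretch included a few of known function. CYP79A2, which starts the synthesis of benzylglucosinolate, had log2 fold changes of 0.02 in ebs and -0.04 in shl-2 (adjusted p = 0.936 and 0.855). CYP84A4, an enzyme of arabidopyrone synthesis, had -0.16 and 0.01 (adjusted p = 0.472 and 0.976), and CYP71B31, which can oxidise the floral scent compound linalool, had -0.11 and -0.12 (adjusted p = 0.586 and 0.539). CYP71B6, placed in the conversion of indole-3-acetonitrile, had 0.22 in ebs (adjusted p = 0.746) and a 95% interval of -0.59 to 0.58 in shl-2. The adjoining pair CYP71B28 and CYP71B29 on chromosome 1 had values between -0.10 and 0.05 over both mutants.

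Of the 24 P450 genes 10 lay among the dimmest 30% of probe sets, as did 10 of the 22 BGLU genes and 2 of the 11 GSTU genes. A transcript near background can change without a matching change in signal, so for these 22 members the log2 fold changes may understate a difference. All 5 called members lay among the other 40.

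BGLU16 was the single beta-glucosidase called. It read 7.07, 6.84 and 7.28 in ebs, 7.55, 7.34 and 7.43 in shl-2, and 7.07, 6.87 and 6.95 in wild type. The shl-2 arrays lay above all others, and ebs overlapped wild type. Its log2 fold change was 0.48 in shl-2 (SE 0.11, limma adjusted p = 0.0394), or 1.39-fold higher, and 0.10 in ebs (95% interval -0.15 to 0.35, adjusted p = 0.727). Removing any shl-2 array, ebs array 1, or wild type array 2 or 3 ended the shl-2 call (highest adjusted p = 0.139). Its neighbour with no gene between, BGLU27, had -0.28 in shl-2 (adjusted p = 0.821) and 0.61 in ebs (adjusted p = 0.583).

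The beta-glucosidases of ER bodies and coumarin breakdown had 5 measured genes, of which 0 passed in either mutant. PYK10 (BGLU23), the main ER body beta-glucosidase, read 12.38, 12.52 and 12.41 in ebs, 12.45, 12.50 and 12.12 in shl-2, and 12.11, 12.16 and 12.18 in wild type. The ebs arrays lay above wild type without overlap, while shl-2 array 3 fell within the wild type range. Its log2 fold change was 0.29 in ebs (95% interval 0.06 to 0.51, limma adjusted p = 0.176) and 0.21 in shl-2 (adjusted p = 0.314). Of its list BGLU19, ATA27 (BGLU20, a gene of the anther tapetum), BGLU24 and BGLU25 had values from -0.11 to 0.12 in ebs and from -0.25 to 0.27 in shl-2.

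Genes that work with PYK10 were measured as well, namely NAI1, the transcription factor required for ER bodies, NAI2, their structural protein, and the jacalin-related lectins JAL22, JAL23, JAL33 and JAL34 that gather in complexes with PYK10. Of these 6 genes 0 passed in either mutant with all arrays. Without shl-2 array 3, JAL22 was called in ebs (limma adjusted p = 0.0393), and in shl-2 3 of 6 were called, namely JAL22 (0.0469), JAL33 (0.0105) and JAL34 (0.0497). In that fit 838 of all 22746 probe sets were called in ebs and 909 in shl-2. The array left out was the lowest shl-2 array for all 6 genes and for PYK10, so its removal raised each of their shl-2 means. That array enters the ebs comparison only through the shared spread. With all arrays, the 6 values were all positive in ebs (median 0.30), and 5 of 6 were positive in shl-2 (median 0.23). Among the 22746 probe sets 9838 were positive in ebs and 9514 in shl-2, where the medians were -0.02 and -0.03. The list held 19 names, of which 6 were measured, and both comparisons share the wild type arrays. Whether these genes changed as a set was not tested. JAL22 had the smallest p-value of the list, with 9.17, 9.37 and 9.27 in ebs, with 9.22, 9.36 and 8.87 in shl-2, against 8.91, 8.73 and 8.93 in wild type. The ebs arrays lay above wild type and the shl-2 arrays overlapped it (log2 fold change 0.41, limma adjusted p = 0.11 in ebs, and 0.29, adjusted p = 0.232 in shl-2).

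Among the beta-glucosidases close to PEN2 and the atypical myrosinases, 5 genes were measured and 0 passed. BGLU28, which breaks down glucosinolates when sulfur is scarce and lay among the dimmest 30%, read 3.87, 3.47 and 3.82 in ebs, 5.04, 4.48 and 3.87 in shl-2, and 3.74, 3.64 and 3.86 in wild type. The shl-2 arrays lay above wild type, array 3 by 0.01, and differed widely among themselves. The log2 fold change was 0.72 in shl-2 (95% interval 0.18 to 1.25, limma adjusted p = 0.131) and -0.03 in ebs (adjusted p = 0.976). Without shl-2 array 3 it was 1.01 and called (adjusted p = 0.0153). Its neighbour BGLU15, which acts on flavonol glycosides, read 6.26, 6.48 and 6.27 in ebs, with 6.48, 6.32 and 6.42 in shl-2, against 6.13, 6.12 and 6.15 in wild type. Both mutants exceeded wild type without overlap, yet did not pass (log2 fold change 0.20 in ebs, adjusted p = 0.235, and 0.27 in shl-2, adjusted p = 0.0890). BGLU29, BGLU31 and BGLU32 ranged from -0.18 to 0.09 over both mutants.

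The monolignol glucosidases BGLU45, BGLU46 and BGLU47 release the alcohols from which lignin is built, and 0 of 3 passed. BGLU46 had the highest log2 fold change of the family in ebs, with 7.38, 6.43 and 7.52 in ebs, 7.19, 6.80 and 6.90 in shl-2, and 6.75, 5.68 and 6.40 in wild type. The shl-2 arrays lay above wild type, and ebs array 2 fell within its range. The log2 fold changes of 0.83 in ebs (95% interval 0.14 to 1.52) and 0.69 in shl-2 (-0.00 to 1.38) did not pass (limma adjusted p = 0.203 and 0.271). BGLU45 had 0.38 and 0.29 (adjusted p = 0.693 and 0.767), and BGLU47 had -0.36 and -0.15 (adjusted p = 0.301 and 0.685).

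Single genes stood for the remaining roles of beta-glucosidases. BGLU33, which frees abscisic acid from its glucose ester in the vacuole, had a log2 fold change of 0.03 in ebs and -0.17 in shl-2 (adjusted p = 0.962 and 0.684). BGLU42, which acts on the coumarin scopolin in roots, had -0.13 and -0.17 (adjusted p = 0.568 and 0.413), and BGLU36, a relative of the classical myrosinases, had 0.07 and 0.12 (adjusted p = 0.741 and 0.51). BGLU40 had the lowest value of the family in shl-2, -0.36 (adjusted p = 0.259), with 7.25, 7.51 and 7.37 in shl-2 against 7.66, 7.83 and 7.72 in wild type and no overlap. BGLU44, a mannoside-cleaving member, stood at 0.01 in ebs and -0.01 in shl-2, with 95% intervals inside a 2-fold change.

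No tau class glutathione transferase was called in limma. GSTU16 came closest in ebs, where it read 7.61, 7.18 and 7.46, with 7.60, 7.75 and 7.26 in shl-2 and 7.98, 8.26 and 7.79 in wild type. Both mutants lay below wild type without overlap. The log2 fold changes were -0.59 in ebs (95% interval -0.95 to -0.23, limma adjusted p = 0.0843) and -0.47 in shl-2 (-0.83 to -0.11, adjusted p = 0.138). GSTU27 was without overlap above wild type in shl-2 (0.29, adjusted p = 0.139). GSTU20, which interacts with the jasmonate-conjugating enzyme of far-red light signalling, had 0.08 in ebs and -0.08 in shl-2 (adjusted p = 0.816 and 0.803).

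The tau class genes also form tandem repeats on chromosome 1. GSTU23, GSTU22, GSTU21 and GSTU20 lie within 7 annotated genes, and their log2 fold changes ranged from -0.25 to 0.08 in ebs and from -0.25 to 0.24 in shl-2. In the adjoining pair, GSTU25 had -0.32 in ebs and -0.48 in shl-2, while GSTU26 had 0.27 in ebs and 0.19 in shl-2 (adjusted p from 0.314 to 0.76). GSTU25, a transferase induced by foreign compounds, had a wide interval in ebs (-1.24 to 0.60), so its difference from wild type was not resolved. Over all families, 21 members fell in 9 runs of genes that adjoin each other with no gene between, and 2 of these runs held a called member. These were CYP71B36 in ebs and BGLU16 in shl-2, beside 3 of all 62 members called in each mutant. Whether adjoining members differ from the others was not tested.

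**Figure D4:**
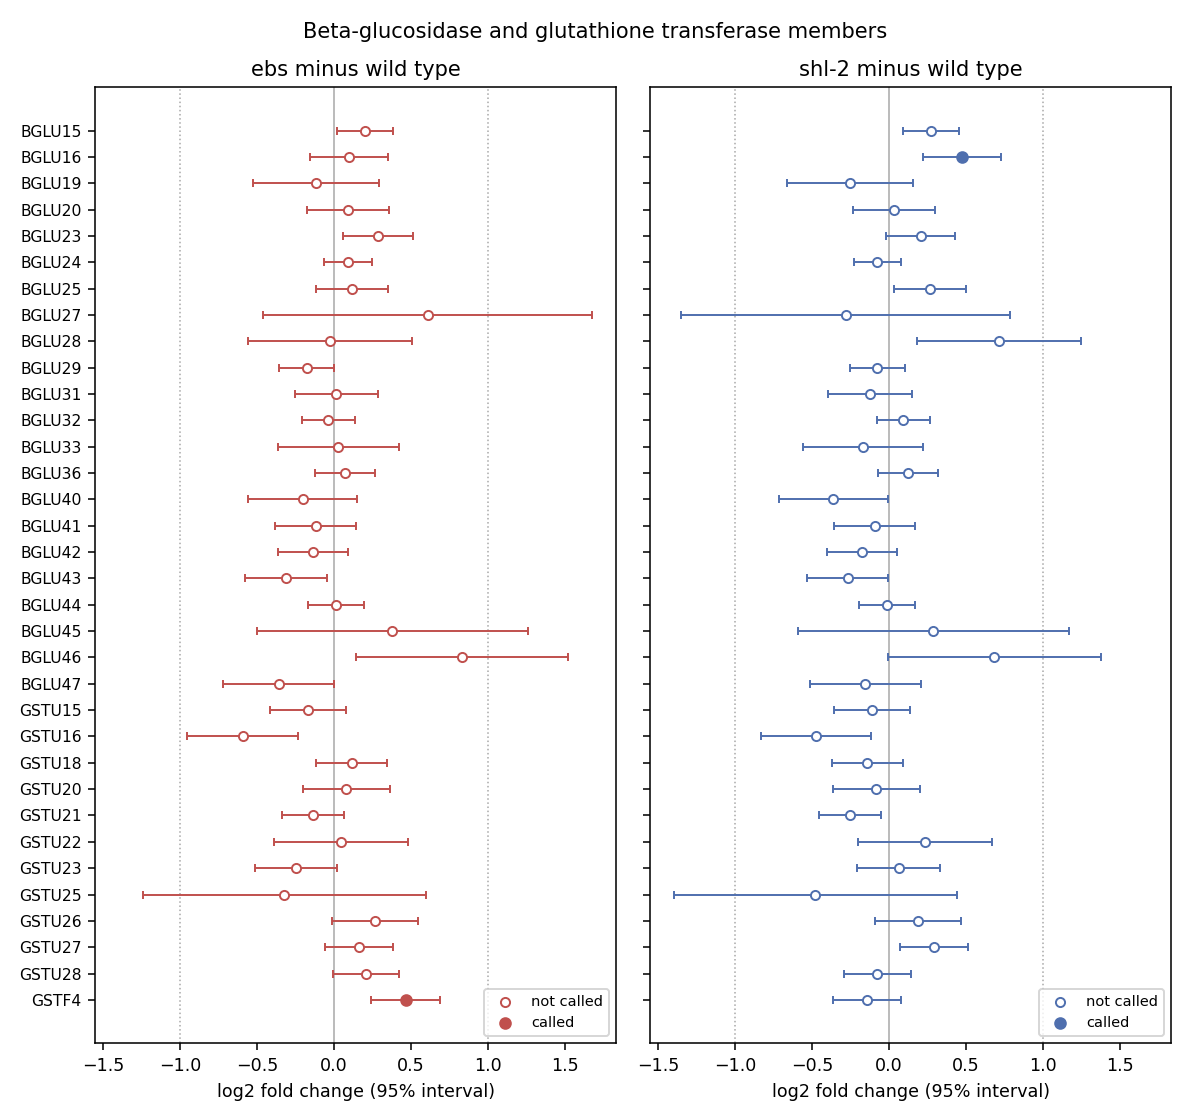
Log2 fold change with its 95% interval for the 22 BGLU, 11 GSTU and 1 GSTF genes in ebs minus wild type (left) and shl-2 minus wild type (right), with filled points called and dotted lines at a 2-fold change in either direction. GSTF4 in ebs and BGLU16 in shl-2 are the called members, and BGLU27, BGLU45, BGLU46 and GSTU25 have intervals that reach past a 2-fold change in both mutants.

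Other enzymes of glutathione were measured in small number. The lambda class transferase GSTL3 had log2 fold changes of -0.04 in ebs and -0.08 in shl-2 (adjusted p = 0.807 and 0.607). The 2 glutathione reductase genes did not pass. GR, for the organelles, had -0.25 and -0.20 (adjusted p = 0.154 and 0.224), and GR1, for the cytosol, had -0.25 and -0.31 (adjusted p = 0.274 and 0.146). Of 3 glucosinolate enzymes outside the P450 family 0 passed in ebs and 1, UGT74B1, was lower in shl-2. BCAT4 had 0.31 in ebs and -0.13 in shl-2 (limma adjusted p = 0.157 and 0.557), and AOP3 had 0.02 and -0.52 (adjusted p = 0.97 and 0.089). UGT74B1, which adds glucose to form desulfoglucosinolates, read 8.81, 8.69 and 8.78 in ebs, with 8.62, 8.81 and 8.32 in shl-2, against 9.29, 9.15 and 9.24 in wild type. Both mutants lay below wild type without overlap, with -0.64 in shl-2 (limma adjusted p = 0.00947) and -0.47 in ebs (adjusted p = 0.0593). The shl-2 call held in each of the 9 fits that left out an array. In ebs UGT74B1 was called without shl-2 array 2 or 3 (adjusted p = 0.0399 and 0.0171), with median centring (0.0441), with trended and robust variances (0.0382) and with the 2 genotypes fitted alone (0.0245).

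The cyclophilin genes that share the letters CYP had negative log2 fold changes in both mutants, and 0 of 4 passed. The values ran from -0.39 to -0.10 in ebs and from -0.16 to -0.06 in shl-2. Of all probe sets 56.5% were negative in ebs and 58.0% in shl-2, and both comparisons share the wild type arrays. SQN (CYP40), a helper of ARGONAUTE loading in the microRNA pathway that delays adult leaf traits, read 5.27, 5.41 and 5.30 in ebs, 5.44, 5.76 and 5.47 in shl-2, and 5.77, 5.69 and 5.68 in wild type. The ebs arrays lay below all others. The log2 fold change was -0.39 in ebs (95% interval -0.60 to -0.18, limma adjusted p = 0.0585) and -0.16 in shl-2 (adjusted p = 0.424). Without shl-2 array 2 it was called in ebs (adjusted p = 0.0301). SQN was the single member with a second probe set, which lay near background and gave -0.13 in ebs (adjusted p = 0.539). CYP71, a cyclophilin that binds histones, is no P450 despite the name it shares with the CYP71B subfamily. It had -0.14 in ebs and -0.10 in shl-2 (adjusted p = 0.454 and 0.586).

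How well these values bound a difference varied between members. The 95% interval of the log2 fold change stayed inside a 2-fold change in either direction for 55 of 62 members in ebs and for 55 of 62 in shl-2 (88.7% each), against 96.8% and 96.4% of all probe sets. In ebs the 7 others were CYP71B36, which was called, and BGLU27, BGLU45, BGLU46, GSTU25, CYP71B22 and CYP71B23, which were not. In shl-2 they were CYP78A9, which was called, and BGLU27, BGLU28, BGLU45, BGLU46, GSTU25 and CYP71B23. For these uncalled genes a difference as large as 2-fold lay within the interval. The intervals bound the signal. For the 22 members among the dimmest probe sets they may not bound the transcript, which can change without a matching change in signal. Of these dim members all but BGLU27, and BGLU28 in shl-2, had intervals inside a 2-fold change.

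The uncalled genes with intervals reaching a 2-fold change were among those that varied most between arrays of 1 genotype. The intervals are computed from that same spread, so this is no separate observation. The pooled SD within genotypes had a median of 0.15 over the 62 members (0.14 for P450, 0.16 for BGLU and 0.16 for GSTU) and of 0.12 over all probe sets, and 15 members lay in the upper 10% of all probe sets. BGLU27 had the widest spread, with 4.16, 3.28 and 5.47 in ebs, 3.58, 3.29 and 3.37 in shl-2, and 3.58, 3.08 and 4.42 in wild type. CYP71B22 read 5.17, 4.37 and 6.38 in ebs, 5.21, 4.55 and 4.71 in shl-2, and 5.07, 4.45 and 5.12 in wild type. For both genes array 2 was the lowest in all 3 genotypes, and the highest was array 3 in ebs, array 1 in shl-2 and array 3 in wild type.

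CYP71B23, the gene next to CYP71B22, read 5.68, 5.21 and 6.45 in ebs, 6.58, 5.75 and 5.43 in shl-2, and 6.46, 5.13 and 5.38 in wild type. BGLU45 read 6.63, 5.55 and 7.31 in ebs, 6.77, 6.33 and 6.12 in shl-2, and 6.46, 5.56 and 6.33 in wild type. For both, array 2 was the lowest in ebs, array 3 in shl-2 and array 2 in wild type. BGLU46 was lowest on array 2 in all 3 genotypes, and CYP71B6 on array 2 in ebs and on array 3 in shl-2 and in wild type. GSTU25, with 7.01, 6.18 and 6.85 in ebs, 7.05, 6.92 and 5.61 in shl-2 and 6.85, 7.71 and 6.45 in wild type, was also lowest on ebs array 2 but highest on ebs array 1. PDF1.2, a defensin gene and the single wound and defence marker measured, read 6.56, 4.78 and 6.79 in ebs, 6.25, 6.01 and 5.71 in shl-2, and 6.06, 5.58 and 4.76 in wild type, and its part in these values was not tested.

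**Figure D5:**
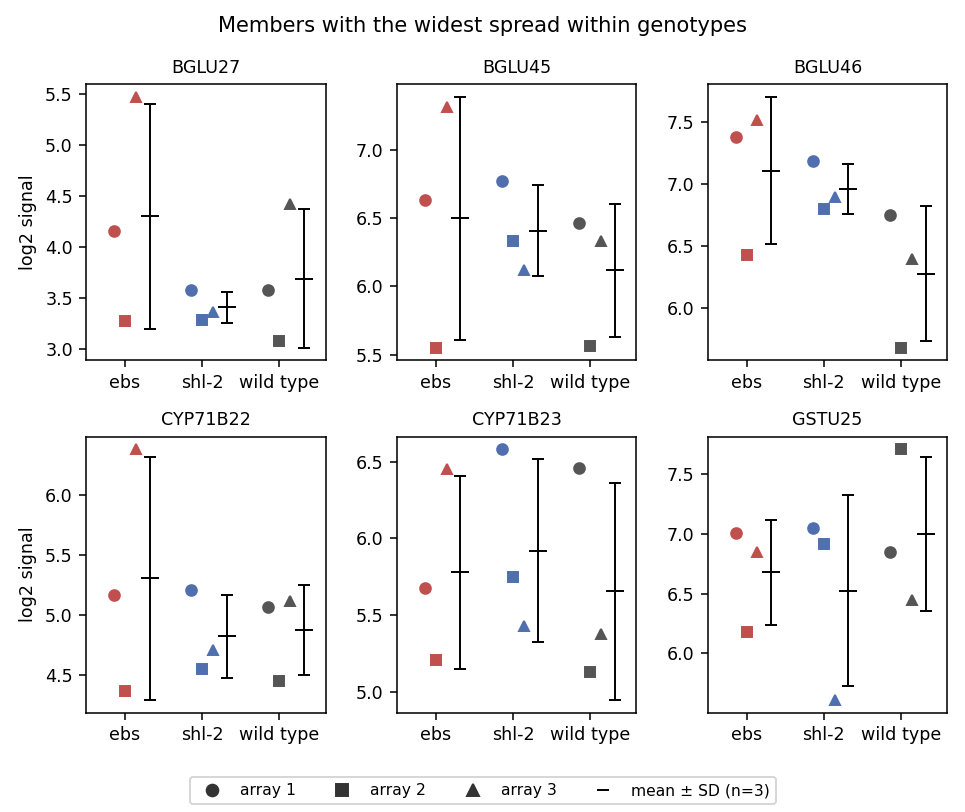
Log2 signal on each array (array 1, circle; array 2, square; array 3, triangle) in ebs, shl-2 and wild type for the 6 members with the widest spread within genotypes, with mean and SD to the right of each genotype; each panel has its own vertical scale. Array 2 is the lowest array in all 6 panels in ebs, in 3 in shl-2 (BGLU27, CYP71B22 and BGLU46) and in 5 in wild type (all but GSTU25).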

How the data were processed

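Total RNA from complete seedlings (500 ng per sample, 3' labelling kit, per the labels' protocols) was read on 9 arrays. The authors deposited 1 log2 value for each probe set. RMA (affy package) is named by the submitters' processing notes, the version is not given, and scanner files were not used. RMA brings arrays to a common distribution, so a shift of all transcripts would not show.

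Of 22810 probe sets, 64 controls were left out and 22746 tested, with no filter on low signals. The model in limma 3.58.1 (R 4.3.3) held 1 mean for each genotype over the 9 arrays, with moderated variances, two-sided tests and Benjamini-Hochberg adjustment over all probe sets. Errors of fold changes are moderated standard errors. The number of arrays limits the precision. Each p-value sets a difference of genotype means against the spread between these pools, estimated over all genotypes and moderated across probe sets. The fit was tested on simulated data in which arrays and probe sets varied independently, so correlated deviations between arrays were not covered.

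Names came from the platform annotation, updated through Entrez identifiers to RefSeq (TAIR10.1), used also for gene order; 13513 probe sets named 1 gene. The probe set with the highest mean stood for a gene. The files name no build, so no coordinates are given. All called members, members adjoining a called member, and SHL were named. In each role or pathway list the called genes, or else that of smallest p, were named. Other members and list genes were named after their values were seen, as were the stretch of chromosome 3 and the repeats of up to 10 intervening genes. Members and lists were chosen with earlier results of these data known. Role lists (P450, beta-glucosidase), pathway lists (other glutathione transferases, glutathione turnover, ER body partners, glucosinolate enzymes) and marker lists (root, flower, leaf photosynthesis, wound and defence) are described by counts and medians, with no set test.

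Alternatives were a replicate block, trended and robust variances, median centring, quantile normalization applied again, a filter on the dimmest 30%, a fit of the 2 genotypes compared, the mean over probe sets of a gene, removal of s_at and x_at probe sets, and leaving out each array.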

Additional observations from a re-analysis of the deposited data

Results flagged for a closer look

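For 2 members the effects of the mutants differed by the test of the difference itself. CYP78A9 was lower in both mutants, and its log2 fold change for shl-2 minus ebs was -0.77 (limma adjusted p = 0.00896), with all 3 shl-2 arrays below all 3 ebs arrays. For GSTF4 the log2 fold change for shl-2 minus ebs was -0.61 (limma adjusted p = 0.0256), with no overlap between the 3 shl-2 and 3 ebs arrays. GSTF4 was called against wild type in ebs but not in shl-2. Its call between the mutants was lost in 7 of the 9 fits that left out an array, while that of CYP78A9 held in all 9.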

How the results depend on the processing

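Without a single array in turn, members called numbered 0 to 3 in ebs, 1 to 3 in shl-2 and 1 to 2 between the mutants (3, 3 and 2 with all arrays), and calls over all probe sets 264 to 838, 677 to 1229 and 64 to 190. In ebs the P450 count ranged from 0 to 2 and the GSTF and cyclophilin counts from 0 to 1; in shl-2 the P450 count ranged from 1 to 2 and the BGLU count from 0 to 1. Family medians ranged from -0.13 to 0.13 (GSTU, ebs), -0.24 to -0.09 (cyclophilins, ebs), -0.16 to -0.048 (cyclophilins, shl-2) and -0.052 to 0.061 (BGLU, shl-2). With quantile normalization repeated, 1 P450 gene was called in ebs, where CYP71B36 missed (adjusted p = 0.0505). With the 2 genotypes fitted alone, 0 GSTF and 1 cyclophilin genes were called in ebs (GSTF4 at 0.0811) and 1 P450 gene in shl-2; over all probe sets 112 were called between the mutants, against 175. With the dimmest 30% left out, 1 cyclophilin gene, SQN (CYP40), was called in ebs, and the BGLU median in shl-2 was 0.10 over the 12 genes left. UGT74B1 was also called in ebs with the 2 genotypes fitted alone, with median centring and with trended variances, 1 of 3 glucosinolate enzymes against 0. The other counts of members and family medians under these settings, under median centring, trended variances, averaged probe sets and removal of s_at and x_at sets stayed within 1.5 times or within the spread between arrays; no member's probe set was of the latter types. CYP78A9 in shl-2 was called in all 18 settings, the main fit included. Removal of s_at and x_at sets kept the main p-values, so that setting could not alter a member's call. No value called with all arrays or in an alternative changed sign. Samples share replicate numbers, but deviations of same-numbered arrays correlated at -0.29 to 0.46, over 0.1 in 7 of 9 pairs, and 5 of 9 arrays correlated best with their own number. Since not every pair passed 0.1, the numbers were not taken to pair the samples. With the replicate block, BGLU46 was also called, which gave 1 BGLU gene in ebs and 2 in shl-2 (adjusted p = 0.0307 and 0.0493), and all probe sets called numbered 898 in ebs, 1402 in shl-2 and 248 between the mutants, against 726, 1235 and 175. With 3 arrays per genotype, differences of members with wide spread are not resolved.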

Other observations

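A further phi class gene, ATGSTF13, fell outside the naming rule because its annotated name begins with AT. It lay among the dimmest 30% of probe sets and read 3.04, 3.68 and 3.17 in ebs, 3.21, 2.96 and 3.21 in shl-2, and 3.21, 3.22 and 3.21 in wild type. Its log2 fold changes were 0.08 in ebs and -0.09 in shl-2 (limma adjusted p = 0.835 and 0.818).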
